A study of Mus musculus with 10 samples.

Results

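Claudin and tight junction scaffold genes were followed in forelimb-bud ectoderm of mouse (Mus musculus) embryos at E9.75 (E for embryonic day). The group holds 9 of the 55401 genes of the deposited count table, chosen by symbol: the claudins Cldn1, Cldn3, Cldn4, Cldn6, Cldn7 and Cldn9, the membrane protein gene Ocln, and the scaffold genes Tjp1 and Tjp3. All 9 were found, and all 9 passed the filter on low counts. Double-knockout (DKO) embryos, which per the labels lack Sp8 together with Sp6, gave 3 libraries, set against 3 from wild-type (WT) littermates. Sp8 and Sp6 are zinc finger transcription factors of the limb ectoderm. The labels give no allele or type of deletion, and about 2 forelimb buds went into each replicate. Each library is called by its group and the number of its column: DKO 17, DKO 40, DKO 41, WT 32, WT 53 and WT 56. Ectoderm of E10.5 embryos, 2 samples without Sp6 and 2 WT samples, was not analysed here.

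Tight junctions seal the space between neighbouring epithelial cells at the border of their apical and lateral membranes. Claudins are membrane-spanning proteins that polymerise into the strands of the junction and set which ions pass, occludin (from Ocln) sits in the same strands, and the zonula occludens scaffolds made by Tjp1 and Tjp3 tie the strands to the actin cytoskeleton. In the skin, Cldn1 is needed for the barrier against water loss, and Cldn6 is known for its high level in embryonic epithelia. Claudins of the skin surface also interact with the adhesion protein EpCAM, whose gene is described below with the other junction genes.

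Library totals lay between 64432348 and 87040786 counts, over 21716 to 24651 genes detected. Levels are in CPM, a gene's counts set relative to the TMM-scaled library size. Sp8 had 5.86, 2.38 and 2.80 CPM in DKO 17, DKO 40 and DKO 41, against 34.1, 43.2 and 31.3 CPM in WT 32, WT 53 and WT 56. Sp6 had 133.2, 13.9 and 76.9 CPM in the same DKO libraries and 228.5, 312.0 and 319.9 CPM in the WT libraries, lower in each DKO library but not called (edgeR adjusted p = 0.206). Of its 3841 exon bases, 3329 overlap Gm11532 on the opposite strand, and the libraries do not mark the strand, so reads of both genes cannot be told apart. All 10 ectoderm markers checked were detected, with a summed level of 1664 to 2152 CPM in DKO and 2490 to 2889 CPM in WT. The 10 endothelium markers summed to 1.76 to 2.15 CPM in DKO and 1.20 to 1.71 CPM in WT, with Cdh5, the cadherin of blood vessels, at 0 counts in each library. Erythroid markers (9 genes) summed to between 27.0 CPM in DKO 17 and 917.8 CPM in DKO 41, against 0 to 300.8 CPM in WT. Mesenchyme markers (12 genes) summed to 248.8 to 466.6 CPM in DKO and 461.9 to 495.6 CPM in WT. Col1a2 carried much of the WT sum, with 203.7, 316.2 and 266.8 CPM in WT 32, WT 53 and WT 56. The even WT sum hides uneven markers, such as Prrx1 with 29.0, 1.61 and 0.412 CPM in these libraries. Prrx2, Col3a1, Twist1, Tbx5, Meox2 and Tbx18 were also highest in WT 32 among the WT libraries. Col1a1, Col1a2 and Meox1 were highest in WT 53, and Pdgfra in WT 56. Each library pools peeled tissue, so fewer cells of a type and less RNA per cell cannot be told apart.

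The starts of Cldn1 and Cldn7 are shown because these were the members called lower and nearest to a call. The 250 bases before each annotated start, from RefSeq on GRCm38.p6, run from 5′ to 3′ on the gene's own strand. For Cldn1 (minus strand) they are chr16:26371840-26372089, and for the upstream start of Cldn7 (plus strand) chr11:69964529-69964778. Capitals mark the motifs named after the sequences, found by a search of both strands in which each motif was sought by itself, so that matches may overlap.
Cldn1: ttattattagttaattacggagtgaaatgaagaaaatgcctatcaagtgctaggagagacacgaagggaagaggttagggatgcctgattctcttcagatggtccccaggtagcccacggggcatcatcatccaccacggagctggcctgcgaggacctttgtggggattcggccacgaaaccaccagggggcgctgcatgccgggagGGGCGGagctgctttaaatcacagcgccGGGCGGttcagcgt
Cldn7: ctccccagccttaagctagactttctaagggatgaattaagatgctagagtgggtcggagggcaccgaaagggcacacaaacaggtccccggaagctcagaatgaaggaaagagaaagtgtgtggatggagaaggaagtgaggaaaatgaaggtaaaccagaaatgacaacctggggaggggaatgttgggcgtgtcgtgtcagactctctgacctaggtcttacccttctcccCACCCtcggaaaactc

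The stretch of Cldn1 holds 2 copies of the GC box GGGCGG, the motif that SP factors are known to bind, which begin 42 and 14 bases before the start. That of Cldn7 holds 1 CACC box (CACCC), 16 bases before the start. The search was made in windows of 250 bases before to 50 after each start, on both strands. Of the 9 members, 8 had an entry (all but Cldn9), with 11 windows in all. A GC box was in 8 of the 11 windows and in 35.7% of 32851 promoters of the same length. The windows of Cldn4, Cldn6 and Tjp1, which were not called, held 2 copies each, as that of Cldn1 did. The window of the downstream start of Cldn7, not shown, held 1. The CACC box was in 9 windows and in 57.5% of all promoters, and the E-box CACCTG, known from Snail and Zeb repressors, was in 8 windows and in 20.2% of all promoters. The grainyhead-like core ACCGGT was in 0 of the 11 windows and in 2.33% of all promoters. The windows of the members had a median GC content of 60.7%, against 52.7% over all promoters. These matches describe the letters only. The shares over the members were read from windows that partly overlap within Ocln.

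Positions are on GRCm38. The genes Cldn6 (chromosome 17, 23679249 to 23682446, plus strand) and Cldn9 (chromosome 17, 23682584 to 23684026, minus strand) end towards each other with 137 bases between them. Cldn3 (134986214 to 134987472) and Cldn4 (134945119 to 134946934) lie on chromosome 5 with 1 exon each. Cldn1 is on chromosome 16 (26356642 to 26371841), Cldn7 on chromosome 11 (69964779 to 69967885), Ocln on chromosome 13 (100496507 to 100552718), Tjp1 on chromosome 7 (65296165 to 65527781) and Tjp3 on chromosome 10 (81273207 to 81291581). The library chemistry does not mark the strand, and the exons of Cldn3 overlap 40 bases of the antisense gene Wbscr25 and those of Tjp3 40 bases of Apba3. How reads shared by related claudins were counted is not given in the sources used here.

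The question put to these genes is whether their level in limb ectoderm differs when both factors are missing. Of the 9 genes, 1 fell (Cldn1) and 0 rose at an adjusted p under 0.05 by edgeR's quasi-likelihood test. At an unadjusted p under 0.05 there were 2 lower and 1 higher, beside 9.36% lower and 8.67% higher of all genes tested. DESeq2 called 2 lower and 1 higher, and limma-voom called 1 lower and 0 higher. Over the 19126 genes tested, 4.51% were called, 2.81% lower and 1.70% higher, and 1 of 9 is 11.1%, a share set by a single gene from which nothing is read about the group. The median log2 fold change (DKO minus WT) of the 9 was -0.04, beside 0.03 over all genes tested. The libraries of the groups did not overlap for 3 members, 1 higher and 2 lower in DKO, beside 21.9% of all genes tested.

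**Figure D1:**
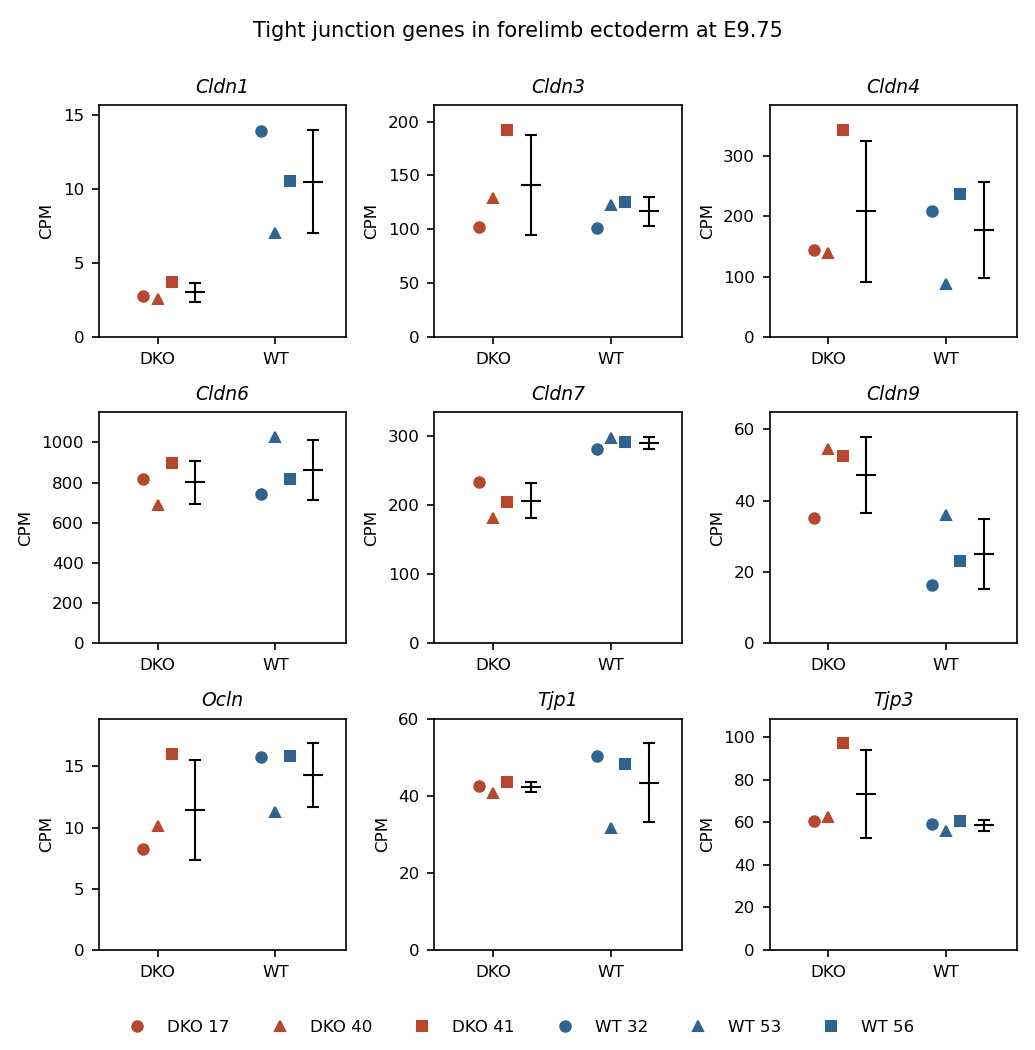
Level in CPM (linear axis from 0) of the 9 tight junction genes in each library, DKO left (red) and WT right (blue), with 1 symbol per library; the black bar is the mean and SD of 3 libraries. Cldn1 and Cldn7 are lower in each DKO library than in each WT library, Tjp3 is higher by a small gap, and the groups overlap for the other 6 genes.

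Cldn1, the claudin of the epidermal water barrier, had 2.75, 2.54 and 3.73 CPM in DKO 17, DKO 40 and DKO 41. It had 13.9, 7.01 and 10.54 CPM in WT 32, WT 53 and WT 56. All 3 DKO libraries lay below the lowest WT library, and WT 53 was the lowest of the WT group. These values rest on 229, 194 and 333 counts in DKO and 1203, 444 and 921 counts in WT. Cldn1 averaged 3.01 ± 0.638 CPM in DKO and 10.49 ± 3.46 CPM in WT (SD, n = 3 each), 3.49-fold lower in DKO. The log2 fold change was -1.82 (SE 0.324, 95% interval -2.55 to -1.08; edgeR adjusted p = 0.0169). With 1 library left out it stayed between -2.02 and -1.58. The adjusted p by edgeR no longer passed when DKO 40 (0.0919), WT 32 (0.0731) or WT 56 (0.0731) was left out, nor when WT 32 and DKO 41 were left out together (0.0776).

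Cldn7, a claudin of the lateral membrane that binds EpCAM, had 233.5, 182.2 and 205.5 CPM in DKO 17, DKO 40 and DKO 41, against 281.2, 298.5 and 292.7 CPM in WT 32, WT 53 and WT 56. The groups did not overlap, and the WT libraries lay close together. The means were 207.1 ± 25.7 CPM in DKO and 290.8 ± 8.80 CPM in WT (SD, n = 3 each). The log2 fold change of -0.49 (SE 0.117, 95% interval -0.75 to -0.23) stood just outside the threshold (edgeR adjusted p = 0.0507). With the RLE scaling factors of DESeq2 in edgeR it was just inside (adjusted p = 0.0498), and with DESeq2's own test the adjusted p was 0.00256. Without DKO 17 it also passed (log2 fold change -0.58, edgeR adjusted p = 0.0326). It missed the threshold with any other library left out (adjusted p 0.0891 to 0.205), and also with upper-quartile scaling (0.0696), no filter on low counts (0.102) and legacy=TRUE (0.0705).

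Cldn6, the claudin best known from embryonic epithelia, was at 816.7, 687.0 and 900.0 CPM in DKO 17, DKO 40 and DKO 41. In WT 32, WT 53 and WT 56 it was at 741.1, 1028 and 819.0 CPM. The groups overlapped, and WT 53 was the highest library. The log2 fold change was -0.11 with a 95% interval of -0.44 to 0.23 (edgeR adjusted p = 0.775). The sign turned without WT 53 (0.04).

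Its neighbour Cldn9, a claudin known from the sensory epithelium of the inner ear, had 35.1, 54.3 and 52.4 CPM in DKO 17, DKO 40 and DKO 41, against 16.5, 35.9 and 23.0 CPM in WT 32, WT 53 and WT 56. The groups touched in a single place, with WT 53 just above DKO 17. The means were 47.3 ± 10.6 CPM in DKO and 25.1 ± 9.88 CPM in WT (SD, n = 3 each). The log2 fold change of 0.93 (SE 0.280, 95% interval 0.30 to 1.56) missed the threshold by edgeR (adjusted p = 0.106). Without WT 53 it was 1.26 and passed (adjusted p = 0.0462), and without both WT 53 and DKO 17 it was 1.44 (adjusted p = 0.0158). Leaving out that pair was chosen after seeing the data. The groups touched through these same libraries, so leaving them out widens the gap, and nothing is read from it. Without WT 32 the log2 fold change was 0.67 (adjusted p = 0.316), and without both WT 32 and DKO 41 it was 0.58 (0.393). DESeq2 called it on all 6 libraries (log2 fold change 0.91, adjusted p = 0.0288). Per length, the ratio of Cldn9 to Cldn6 was 0.0512, 0.0943 and 0.0695 in the DKO libraries, against 0.0265, 0.0416 and 0.0334 in the WT libraries. That ratio was higher in each DKO library than in each WT library. Among the other pairs compared per length, Cldn1 over Cldn7 was lower in each DKO library, while Cldn4 over Cldn3 and Tjp3 over Tjp1 overlapped. How often such ratios separate over all genes was not computed, so nothing is read from the separation.

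The related claudins Cldn3 and Cldn4, which seal epithelia and are the receptors of a clostridial enterotoxin, varied within the groups. Cldn3 had 101.7, 129.5 and 191.9 CPM in DKO 17, DKO 40 and DKO 41, against 101.5, 122.8 and 125.6 CPM in WT 32, WT 53 and WT 56. Cldn4 had 143.5, 138.4 and 342.3 CPM in the DKO libraries and 207.8, 87.5 and 237.4 CPM in the WT libraries. For both genes DKO 41 was the highest of the 6 libraries, and for Cldn4 WT 53 was the lowest. Their log2 fold changes were 0.28 (95% interval -0.21 to 0.76) for Cldn3 and 0.23 (-0.87 to 1.32) for Cldn4, and neither passed by edgeR (adjusted p = 0.572 and 0.857). Without DKO 41 both signs turned, to -0.02 for Cldn3 and -0.35 for Cldn4. Without WT 53 the log2 fold change of Cldn4 was -0.10. DKO 41 was also the library with the most erythroid transcript, and the part of that in these levels was not tested.

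Ocln had 8.21, 10.1 and 16.0 CPM in DKO 17, DKO 40 and DKO 41, against 15.8, 11.3 and 15.8 CPM in WT 32, WT 53 and WT 56. The groups overlapped through DKO 41. The log2 fold change was -0.32 (95% interval -0.95 to 0.30; edgeR adjusted p = 0.612), and it was -0.67 without DKO 41 (adjusted p = 0.17).

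Of the scaffolds, Tjp1 (zonula occludens 1) had 42.7, 40.9 and 43.6 CPM in DKO 17, DKO 40 and DKO 41. In WT 32, WT 53 and WT 56 it had 50.5, 31.7 and 48.4 CPM. The DKO values fell inside the WT range, and the log2 fold change was -0.04 (95% interval -0.46 to 0.37; edgeR adjusted p = 0.933). Tjp3 (zonula occludens 3), a scaffold of epithelia, had 60.6, 62.3 and 97.2 CPM in the DKO libraries, against 59.4, 55.8 and 60.6 CPM in the WT libraries. The groups did not overlap, but DKO 17 and WT 56 were nearly equal. Its log2 fold change of 0.33 (95% interval -0.10 to 0.75) missed the threshold by edgeR (adjusted p = 0.421), and it was 0.06 without DKO 41.

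To compare genes with each other, CPM were divided by the kilobases of annotated exon. On this scale Cldn6 was the highest of the 9 genes in each library, with 465.6 ± 62.4 in DKO and 501.3 ± 86.2 CPM per kb in WT (SD, n = 3 each). Among the 14196 protein-coding genes tested, its mean ranked 61 in DKO and 48 in WT. Cldn7, Cldn4 and Cldn3 followed. In DKO they stood at 106.3 ± 13.2, 114.6 ± 64.02 and 112.0 ± 36.7 CPM per kb, and in WT at 149.3 ± 4.52, 97.8 ± 43.7 and 92.6 ± 10.45 CPM per kb. Cldn7 was above the other 2 in each WT library, while in DKO 40 and DKO 41 it was not, and the 3 DKO means differed by less than their spread. Cldn9 stood at 32.8 ± 7.36 in DKO and 17.4 ± 6.84 CPM per kb in WT, and Tjp3 at 19.8 ± 5.56 and 15.8 ± 0.683 CPM per kb. Cldn9 was above Tjp3 in each DKO library and below it in WT 32 and WT 56. Tjp1 had 5.43 ± 0.174 in DKO and 5.57 ± 1.32 CPM per kb in WT, and Ocln 2.71 ± 0.963 in DKO and 3.38 ± 0.617 CPM per kb in WT. Cldn1 was the lowest of the 9 in each library, with 0.621 ± 0.132 in DKO and 2.17 ± 0.715 CPM per kb in WT. Cldn1, the member called lower, was thus also the least abundant per length.

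**Figure D2:**
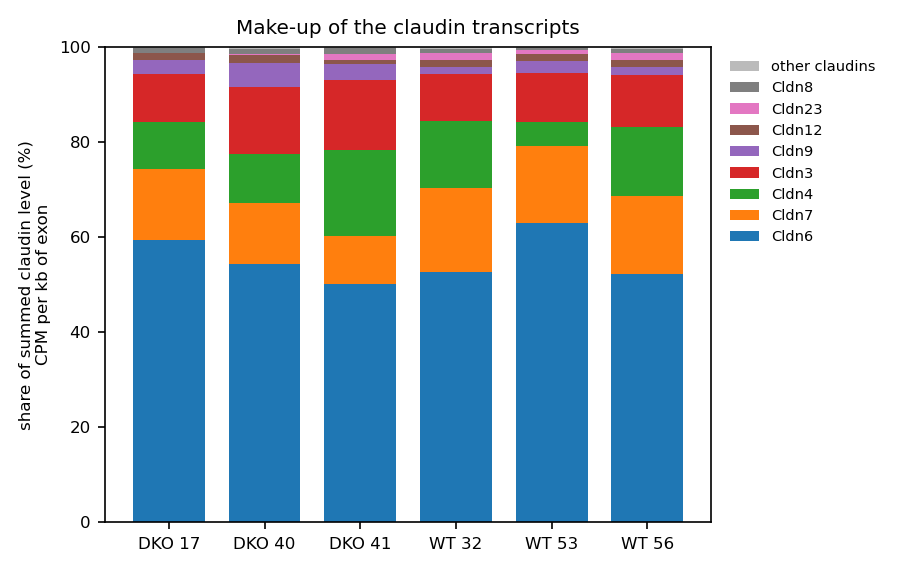
Share (%) of each claudin in the summed claudin level of a library (CPM per kb of annotated exon), 1 stacked bar per library, DKO left and WT right. Cldn6 makes up 50.2% to 59.3% in DKO and 52.2% to 63.0% in WT; Cldn1 is part of the thin remainder at the top.

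The sum over the 32 claudins with an annotated length was 799.9, 734.3 and 1043 CPM per kb in DKO 17, DKO 40 and DKO 41, against 816.5, 948.0 and 910.8 CPM per kb in WT 32, WT 53 and WT 56. The groups overlapped. The 6 claudins of the set held between 96.5% and 97.4% of this sum in DKO and between 96.0% and 97.3% in WT. Cldn6 made up 54.6 ± 4.59% in DKO and 56.0 ± 6.07% in WT (SD, n = 3 each). The share of Cldn7 was 14.99%, 12.7% and 10.1% in the DKO libraries and 17.7%, 16.2% and 16.5% in the WT libraries. The share of Cldn9 was 3.04%, 5.13% and 3.48% in the DKO libraries and 1.40%, 2.62% and 1.75% in the WT libraries. For both, the groups did not overlap, lower for Cldn7 and higher for Cldn9 in DKO. The shares of Cldn1 (lower in DKO) and Cldn8 (higher in DKO) did not overlap either. Cldn1 held 0.0721 ± 0.00161% of the sum in DKO and 0.248 ± 0.1% in WT. These shares are a description with no test. A change in any claudin moves the shares of the others in that library. How often such shares separate was not computed beyond these claudins, so nothing is read from the separations. On CPM alone, the groups did not overlap for 21.9% of all genes tested.

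The 64 other tight junction and polarity genes in the table were taken from 3 lists: 27 claudins, 26 membrane proteins and scaffolds, and 11 genes of the apical polarity complexes. Of the 41 tested, 1 rose and 0 fell, or 2.44%, beside 4.51% of all genes tested. At an unadjusted p under 0.05 there were 2 higher and 5 lower, DESeq2 called 2 higher and 3 lower, and limma-voom called 0. Their median log2 fold change was -0.11. The gene that rose was Crb2, an apical polarity protein of the Crumbs complex. It had 19.8, 21.2 and 13.1 CPM in DKO 17, DKO 40 and DKO 41, against 7.52, 10.01 and 6.88 CPM in WT 32, WT 53 and WT 56. The groups did not overlap, with a log2 fold change of 1.16 (SE 0.254; adjusted p = 0.0371 by edgeR). Leaving out any 1 library but DKO 41 ended the call (adjusted p up to 0.191), and 113 bases of its exons overlap Dennd1a.

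**Figure D3:**
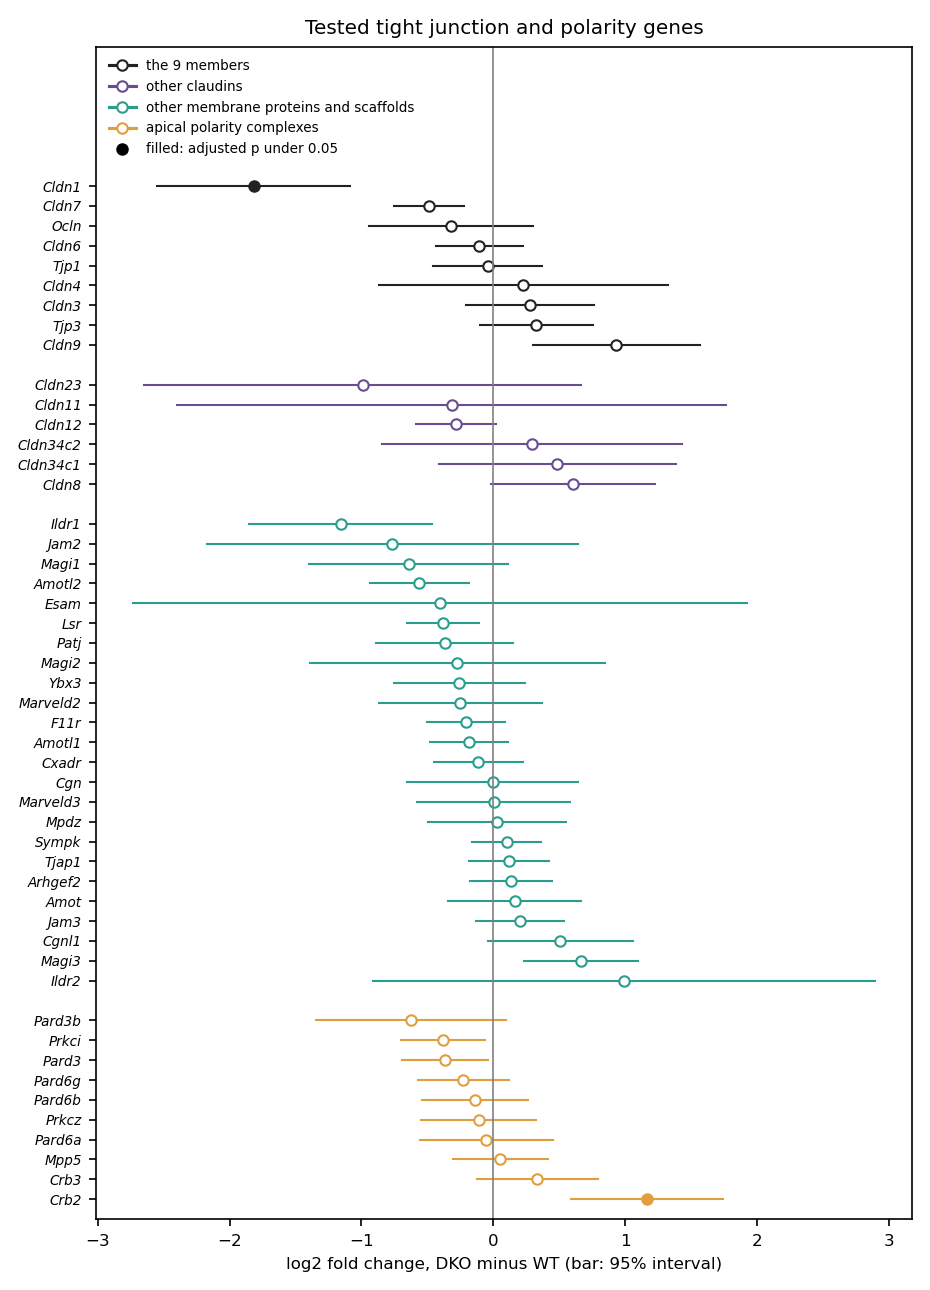
Log2 fold change (DKO minus WT) with its 95% interval for tested tight junction and polarity genes, by list and sorted within it; filled points passed an adjusted p under 0.05. Cldn1 (-1.82) and Crb2 (1.16) are the filled points, and most intervals cross 0.

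Of the 27 other claudins, 14 had 0 counts in each library and 6 were tested, with 0 called by edgeR, DESeq2 or limma-voom and 0 at an unadjusted p under 0.05 by edgeR. Cldn12 was at 44.8 ± 5.05 CPM in DKO and 54.4 ± 1.49 CPM in WT with no overlap of the groups, and Cldn8 at 22.1 ± 5.18 CPM in DKO and 14.4 ± 5.17 CPM in WT (SD, n = 3 each). Cldn34c1 was at 2.86 ± 1.11 CPM in DKO and 2.01 ± 0.516 CPM in WT. Cldn23, known from differentiated surface epithelium, was the uneven member of this list. It had 2.45, 4.06 and 24.4 CPM in DKO 17, DKO 40 and DKO 41, against 24.2, 12.7 and 25.1 CPM in WT 32, WT 53 and WT 56. DKO 41 was at the level of the WT libraries and the other DKO libraries were far below. Over all 6 libraries its log2 fold change was -0.99 (adjusted p = 0.538 by edgeR). Left without DKO 41, it was -2.71 and passed (adjusted p = 0.0145), and without WT 32 and DKO 41 it was -2.61 (0.0474). Among the 25 membrane proteins and scaffolds tested, 0 were called by edgeR or limma-voom, and DESeq2 called 1 higher and 3 lower. At an unadjusted p under 0.05 by edgeR there were also 1 higher and 3 lower, beside 8.67% and 9.36% of all genes tested.

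Of 6 genes whose products bind claudins or act on those partners, 3 fell and 0 rose, beside 2.81% lower and 1.70% higher over all genes tested. Their median log2 fold change was -0.44, beside 0.03 over all genes tested. St14 (matriptase), a membrane serine protease that cleaves EpCAM, had 109.2, 82.7 and 143.7 CPM in DKO 17, DKO 40 and DKO 41, against 308.7, 275.0 and 431.9 CPM in WT 32, WT 53 and WT 56. The groups were far apart, with a log2 fold change of -1.60 (SE 0.226; adjusted p = 0.00631 by edgeR). This call was kept whichever library was left out (adjusted p up to 0.0352). Epcam had 439.3, 383.7 and 437.7 CPM in the DKO libraries and 568.6, 635.0 and 625.9 CPM in the WT libraries, and fell by 0.54 on the log2 scale (SE 0.103, edgeR adjusted p = 0.0228). Spint2, an inhibitor of matriptase, stood at log2 fold change -0.06, Spint1, its relative, at -0.34 and the protease gene Prss8 at 0.31, and these 3 did not pass the threshold.

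**Figure D4:**
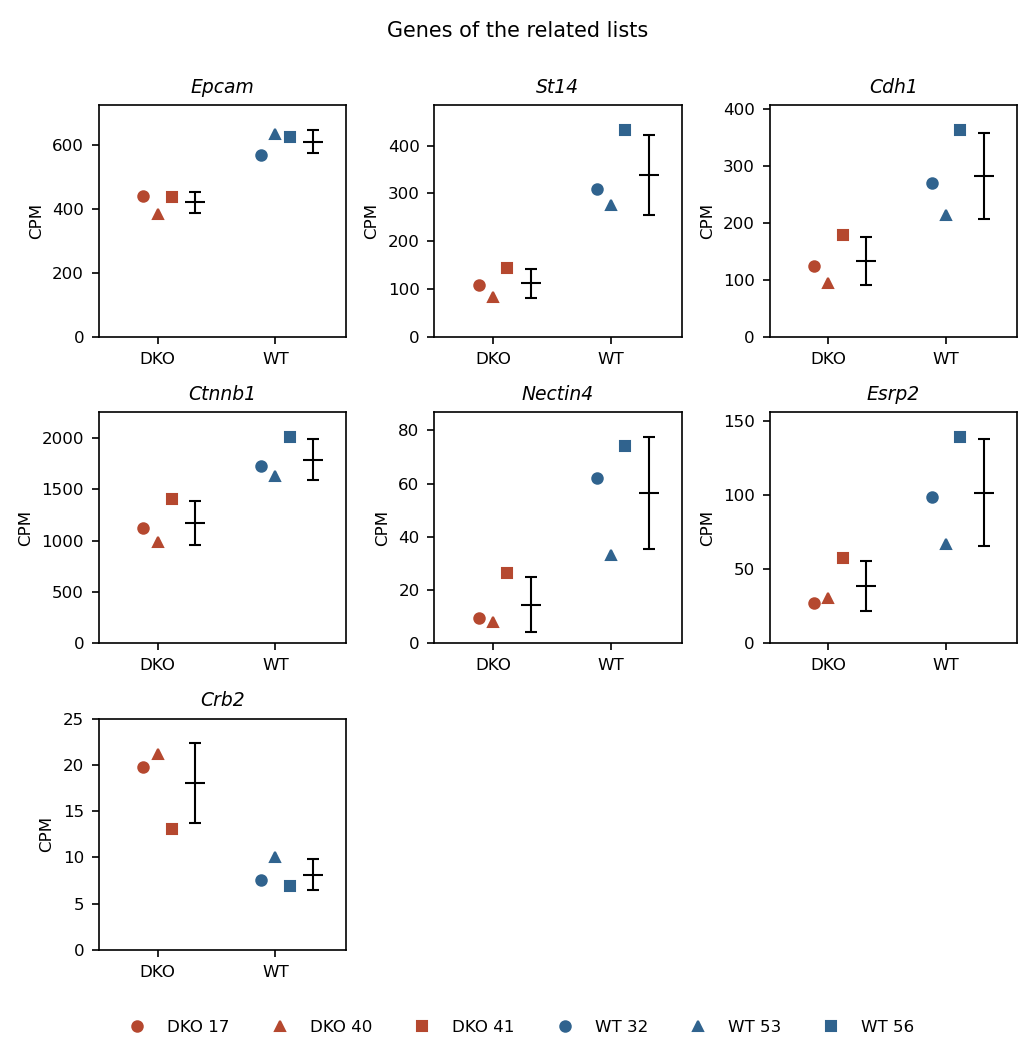
Level in CPM (linear axis from 0) of 7 called genes of the related lists in each library, DKO left (red) and WT right (blue), 1 symbol per library; the black bar is the mean and SD of 3 libraries. The groups do not overlap for any of these 7 genes, with Crb2 higher in DKO and the others lower. The genes are shown because they were called on these libraries, so the separation is no further result. The groups do not overlap for 21.9% of all genes tested.

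Adherens junctions, which hold the same cells together below the tight junction, had 3 of 12 tested genes lower and 0 higher, with a median log2 fold change of -0.24, beside 2.81% lower, 1.70% higher and 0.03 over all genes tested. Cdh1 (E-cadherin) had 124.6, 95.5 and 179.3 CPM in DKO 17, DKO 40 and DKO 41, against 270.3, 215.2 and 363.3 CPM in WT 32, WT 53 and WT 56. It was lower in each DKO library (log2 fold change -1.09, SE 0.249, edgeR adjusted p = 0.0439). Nectin4, an adhesion receptor of skin, fell 3.87-fold to 14.6 ± 10.3 CPM in DKO, against 56.4 ± 21.1 CPM in WT (edgeR adjusted p = 0.0427). Its log2 fold change was -1.94 with all libraries and -2.72 without DKO 41. Ctnnb1 (beta-catenin) fell 1.52-fold to 1175 ± 213 CPM, against 1791 ± 197 CPM in WT (adjusted p = 0.0478). Of 14 transcription and splicing regulators of epithelia, 2 fell and 0 rose, again beside 2.81% and 1.70% of all genes tested. At an unadjusted p under 0.05, 8 were lower and 0 higher, beside 9.36% lower and 8.67% higher of all genes tested. DESeq2 called 5 lower and 0 higher, beside 963 lower and 717 higher of the 19126 genes. By limma-voom 2 were lower and 0 higher, beside 434 lower and 205 higher. Esrp2, an epithelial splicing factor, was 1 of the 2 that fell by edgeR (log2 fold change -1.40, edgeR adjusted p = 0.0479). The calls of Cdh1, Epcam, Nectin4, Ctnnb1 and Esrp2 were each lost with at least 4 of the 6 libraries left out in turn (adjusted p up to 0.209). On all 6 libraries, Cdh1, Nectin4, Ctnnb1 and Esrp2 also missed the threshold by edgeR with library totals alone (adjusted p 0.0568 to 0.0681). The same genes missed it with legacy=TRUE (0.0847 to 0.101) and with no filter on low counts (0.113 to 0.137). By limma-voom, Cdh1 (0.0539) and Esrp2 (0.0620) missed it. Epcam passed in each of these settings, and DESeq2 called all 5. The summed ectoderm markers, given above, were lower in each DKO library (1664 to 2152 CPM in DKO, against 2490 to 2889 CPM in WT). The sum includes Cdh1 and Epcam, which are the 2 of its 10 genes called lower, so it is not separate from these calls. Krt8 was the 1 called higher. The part of the other markers in these calls was not tested. Exons of Ctnnb1 overlap Ulk4 by 759 bases, and those of Esrp2 overlap Nfatc3 by 219 bases.

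To set the members against other genes of the same epithelium, each tight junction gene was also divided by Cdh1 and by Epcam of the same library. Both divisors are themselves lower in DKO, which lifts every ratio. Over Cdh1, 7 of the 9 genes were higher in each DKO library than in each WT library, 1 (Cldn1) was lower and 1 (Cldn7) overlapped, beside 56.2% higher and 1.76% lower of all genes tested on the same divisor. Over Epcam, 5 were higher, 1 (Cldn1) was lower and 3 (Cldn4, Cldn7 and Ocln) overlapped, beside 47.6% higher and 3.26% lower of all genes tested. Most of the higher ratios are thus shared with genes at large, and nothing is read from their count. Cldn6 was 6.56, 7.19 and 5.02 times Cdh1 in DKO 17, DKO 40 and DKO 41, against 2.74, 4.78 and 2.25 times in WT 32, WT 53 and WT 56. Cldn7 was 0.532, 0.475 and 0.470 times Epcam in the DKO libraries, against 0.495, 0.470 and 0.468 times in the WT libraries. Cldn7 thus kept nearly the same ratio to Epcam in the 6 libraries. How many genes keep as even a ratio to Epcam was not computed, so nothing is read from it. Over Cdh1, Cldn7 ranged from 0.806 in WT 56 to 1.91 in DKO 40. Cldn1 was 0.00626, 0.00661 and 0.00853 times Epcam in the DKO libraries, against 0.0245, 0.0110 and 0.0168 times in the WT libraries. It was 0.0221, 0.0265 and 0.0208 times Cdh1 in the DKO libraries, against 0.0515, 0.0326 and 0.0290 times in the WT libraries. Cldn1 thus remained lower in DKO on either divisor, by less over Cdh1 (DKO mean 0.614 of the WT mean) than over Epcam (0.408).

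**Figure D5:**
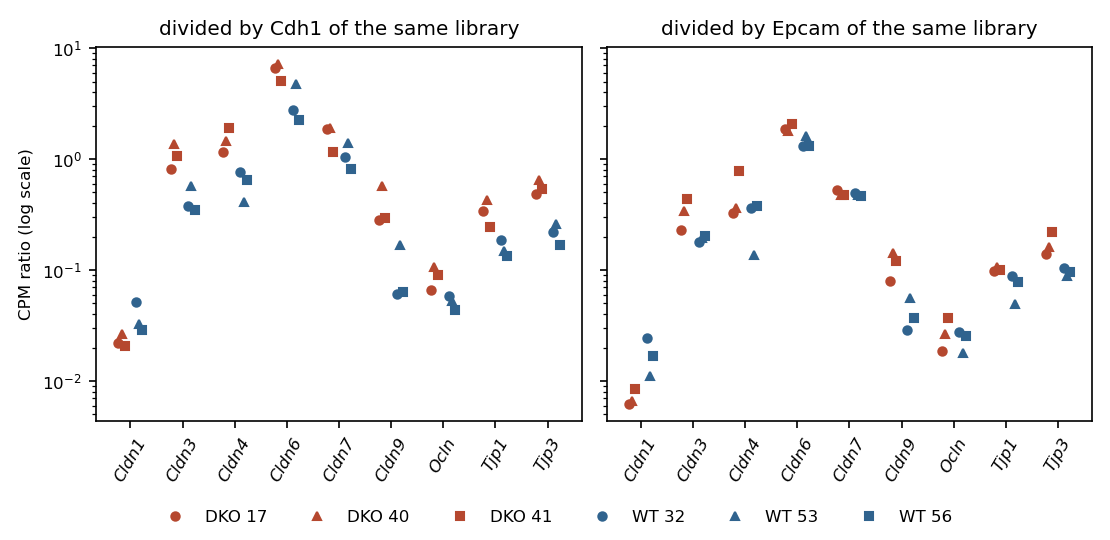
Ratio of CPM of each tight junction gene to Cdh1 (left panel) and to Epcam (right panel) in the same library, on a log scale, DKO red and left of WT in blue for each gene. Cldn1 is the gene lower in DKO in both panels, and Cldn7 over Epcam lies between 0.468 and 0.532 in all 6 libraries.

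The genes whose pattern over the 6 libraries was most like that of Cldn1 were sought among 11303 tested genes of at least 5 CPM in a group, by the root mean square difference of log2 CPM centred per gene. The nearest was Sgk3, a serum and glucocorticoid regulated kinase gene, at a difference of 0.19. It had 12.4, 11.1 and 20.5 CPM in DKO 17, DKO 40 and DKO 41, against 49.8, 33.3 and 52.7 CPM in WT 32, WT 53 and WT 56. Like Cldn1, it was lowest in WT 53 among the WT libraries and highest in DKO 41 among the DKO libraries. Zfp322a (0.22), the adhesion gene Mcam (0.23), the receptor tyrosine kinase gene Mertk (0.23) and Ly6g6e (0.26) came next. The group difference is part of this likeness, and it is given as a description.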

How the data were processed

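The deposited table holds whole-number read counts by gene, not normalized, from SMART-Seq v4 and Nextera XT libraries of ectoderm peeled after 20 min in 0.25% trypsin, per the labels' protocols. Tools named in the submitters' processing notes are HISAT2, StringTie, Cufflinks, fastp, FastQC and DESeq2, and builds GRCm38 and mm10; versions, roles and the counting step were not given in the sources used here. The 6 columns name a group but no replicate of the labels, and the labels do not say which embryos were littermates of which; a p-value therefore covers only the spread among these 6 libraries. The chemistry carries no molecular identifiers, so reads are not independent molecules.

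Counts were tested on the whole table with edgeR 4.0.16 (filterByExpr, TMM, estimateDisp, glmQLFit with robust=TRUE and legacy=FALSE) and its quasi-likelihood F test under R 4.3.3; p-values were adjusted by Benjamini-Hochberg over 19126 genes, with 0.05 as the threshold of the adjusted p for a call. For the SE, the absolute log2 fold change was taken over the root of the F statistic. DESeq2 1.42.0 and limma 3.58.1 (voom) were alternatives, and the tests were first run on simulated data. Exon lengths and positions came from GENCODE M21 (GRCm38), which matched 55141 of 55401 genes (99.5%); Cldn34c3 had no match and is left out of the per-length sums. Each pair of libraries differed by more than sampling noise (chi-square per degree of freedom 54.6 or more). The members and gene lists were chosen with earlier results of these data known, and legacy=FALSE follows an earlier account of these data. Named were the 9 members, Sp8, Sp6, Cdh1 and Epcam, called genes of the lists, other claudins of at least 1 CPM in a group, and the 5 genes nearest to the called member with the largest change. Some genes of the lists are counted but not reported here by name. Of the claudin proteins, no sequence was used here.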

Additional observations from a re-analysis of the deposited data

How the results depend on the processing

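Over the alternatives, the log2 fold change of Cldn1 ranged from -2.02 to -1.58 and kept its sign in all 16. Its call was kept in 12, and the adjusted p ranged from 4.55e-06 to 0.0919. Genes called over the whole table were 717 higher and 963 lower with DESeq2, 116 and 296 with no filter on low counts, 200 and 346 with legacy=TRUE, 95 and 282 without WT 32 and DKO 41, and 205 higher with limma-voom. With 1 library left out they ranged from 53 to 331 higher and 194 to 591 lower. Members called lower were 2 with DESeq2, RLE scaling, library totals alone or a filter of 1 CPM in 3 libraries (the second being Cldn7), 0 without WT 32 and DKO 41, and 0 to 2 with 1 library left out. Members called higher were 1 (Cldn9) with DESeq2 or without WT 53 and DKO 17, and 0 to 1 with 1 library left out. Other tight junction genes called higher were 2 with DESeq2, 0 with no filter, legacy=TRUE, limma-voom or either pair of libraries left out, and 0 to 1 with 1 library left out. Those called lower were 3 with DESeq2, 1 without WT 32 and DKO 41, and 0 to 1 with 1 library left out.

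Signs turned only for uncalled members, among the 24 genes followed. With 1 library left out, the log2 fold change of Cldn3 ranged from -0.024 (without DKO 41) to 0.46, that of Cldn4 from -0.35 (without DKO 41; -0.10 without WT 53) to 0.48, that of Cldn6 from -0.23 to 0.038 (without WT 53) and that of Tjp1 from -0.22 to 0.050 (without WT 32; 0.03 without WT 56). Without WT 32 and DKO 41, Cldn3 was at -0.14, Cldn4 at -0.25 and Tjp1 at 0.020. Cldn6 was at 0.024 without WT 53 and DKO 17, and Tjp1 at 0.00085 with upper-quartile scaling. The cause was not tested. Leaving out WT 53 and DKO 17, the libraries with the fewest genes with a count, was chosen after seeing the data. The shares of Cldn6 and Cldn4 in the claudin sum, the ratio of Cldn6 to Cdh1 and the per-length level of Cldn6 moved by less than 1 SD with a library left out. A mean of 3 libraries cannot move by 1 SD when 1 of them is left out, so nothing is read from this about stability. No paired analysis was possible because the numbers in the column names are not the replicate numbers that the labels give.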

Other observations

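Genes of the transcriptional repressors that act on epithelial junction genes in other settings were read as a list of 7. By edgeR 0 were called, with 3 higher (Twist1, Twist2 and Snai1) and 0 lower at an unadjusted p under 0.05, beside 8.67% higher and 9.36% lower of all genes tested; DESeq2 called 2 higher and limma-voom 0. The basic helix-loop-helix gene Twist2 had 12.3, 67.1 and 26.1 CPM in DKO 17, DKO 40 and DKO 41, against 7.39, 2.31 and 0.549 CPM in WT 32, WT 53 and WT 56. Twist1 had 20.4, 46.7 and 21.4 CPM in the DKO libraries and 14.8, 3.06 and 1.47 CPM in the WT libraries. Both were higher in each DKO library and missed the threshold by edgeR (adjusted p = 0.0777 and 0.135). Snai1 had 2.69, 7.50 and 4.93 CPM in the DKO libraries and 2.84, 1.07 and 0.790 CPM in the WT libraries, overlapping through WT 32 (edgeR adjusted p = 0.132). Snai2 was at 73.2, 85.6 and 116.2 CPM in the DKO libraries and 95.1, 106.4 and 113.1 CPM in the WT libraries, with the groups overlapping. Zeb1 was at or under 0.948 CPM in the DKO libraries and at 2.92, 0 and 0.0572 CPM in WT 32, WT 53 and WT 56. The mesenchyme gene Prrx1 had 3.51, 23.3 and 12.8 CPM in the DKO libraries and 29.0, 1.61 and 0.412 CPM in the WT libraries, with the groups overlapping. Its relative Prrx2 had 83.0, 174.3 and 65.4 CPM in the DKO libraries and 49.4, 37.3 and 18.5 CPM in the WT libraries, higher in each DKO library but not called (edgeR adjusted p = 0.0902). Of the 10 mesenchyme markers tested, 2 fell and 0 rose by edgeR, beside 2.81% lower and 1.70% higher of all genes tested. At an unadjusted p under 0.05, 3 were lower and 2 higher, beside 9.36% and 8.67% of all genes tested. The 2 that fell were Pdgfra (log2 fold change -3.13, edgeR adjusted p = 0.00699) and Meox1 (-2.02, edgeR adjusted p = 0.00582). The part of mesenchyme in these levels was not tested. These genes were named after their values were seen.

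The grainyhead-like gene Grhl3, a regulator of surface ectoderm differentiation, was uneven among the DKO libraries. It had 16.2, 13.6 and 66.3 CPM in DKO 17, DKO 40 and DKO 41, against 158.5, 93.005 and 157.6 CPM in WT 32, WT 53 and WT 56. All DKO libraries were lower than the WT libraries, DKO 41 the least so, and the log2 fold change of -2.08 missed the threshold by edgeR (adjusted p = 0.119). It was named after its values were seen.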
